A study of Mus musculus with 9 samples.

Results

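The expression of 10 genes of the Notch pathway was followed from the periocular neural crest to the cornea of the mouse embryo. They were 3 receptors (*Notch1*, *Notch2* and *Notch3*), 4 ligands (*Jag1*, *Jag2*, *Dll1* and *Dll4*) and 3 target genes (*Hes1*, *Hey1* and *Hey2*). The 10 genes were fixed by name and matched by symbol to the Entrez Gene identifiers of the expression files, which list 19369 genes, and all 10 were listed in all 9 samples. Each sample was a pool of tissue from several eyes of wild-type C57BL/6 embryos, and each of 3 stages had 3 biological replicates. At E10.5, where E stands for embryonic day, the tissue was the periocular neural crest (pNC), the mesenchyme around the early eye that was left after dispase treatment and removal of the ectoderm, lens vesicle and optic cup. At E14.5 and E16.5 the tissue was the whole cornea, which holds epithelium as well as the stroma and endothelium that descend from the neural crest. No sample carried a mutation or received a treatment, so that stage, tissue and dissection differ together between E10.5 and the later stages and cannot be told apart.

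Notch receptors are membrane proteins that are activated by Jagged and Delta-like ligands on a neighboring cell. Binding leads to cleavage of the receptor by ADAM proteases and γ-secretase, and the freed intracellular domain enters the nucleus, where it joins the DNA-binding protein RBPJ and coactivators of the Mastermind family to switch on genes such as *Hes1*, *Hey1* and *Hey2*. In the eye region the pathway is known for its roles in the corneal epithelium, in blood vessels and in the retina, and the transcriptional repressors made from *Hes* and *Hey* genes hold cells back from differentiation in many tissues.

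Expression is given as FPKM, the number of sequenced fragments of a gene scaled to transcript length and to the library total, and the totals were alike, from 8745161 to 9069023 expected counts per sample. A pool is a mixture, in which fewer cells of a type and less RNA per cell cannot be told apart. Marker genes of other cell types changed strongly between stages. The summed FPKM of 9 epithelial markers was 35.1 to 46.9 in the pNC, 705 to 2238 in E14.5 corneas and 5430 to 7828 in E16.5 corneas, while that of 10 markers of vascular endothelium went from 179 to 273 through 74.1 to 123 down to 28.7 to 45.9. In the corneas most of the epithelial sum was keratin genes such as *Krt5* (mean 600.2 and 2377). Means of *Cdh1* (7.25, 42.9 and 63.6 over the stages) and *Trp63* (5.91, 41.3 and 58.6) rose less, and that of *Epcam* fell between the cornea stages (10.8, 38.6 and 25.6). The E10.5 samples held all 7 markers of cranial crest mesenchyme, with a sum of 420 to 478 (328 to 479 in E14.5 corneas and 279.6 to 340 in E16.5 corneas). This sum hides opposite changes. The means of *Alx1*, *Alx4*, *Foxc2* and *Six2* were lower at E14.5 and E16.5 than in the pNC (*Six2* 103.9, 1.51 and 1.56 over the stages). Those of *Prrx1*, *Tfap2b* and *Twist1* were higher (*Tfap2b* 11.4, 150.3 and 81.2). The E10.5 samples also held neuronal markers with a sum of 125 to 206, against at most 2.68 in any cornea. Markers of optic cup and retina had a sum of 35.5, 38.4 and 16.4 in E10.5 replicates 1, 2 and 3, and 4 myogenic markers with a sum of 11.5 to 18.5 at E10.5 were listed at 0 in every cornea. The retinal sum was 16.8 to 35.3 at E14.5 and 8.0 to 8.75 at E16.5, and that of 7 lens markers 2.22 to 8.92, 28.3 to 43.7 and 44.6 to 50.4 over the stages. Most of the lens sum in the corneas was *Cryab* (0.97 to 3.68, 23.21 to 39.36 and 41.3 to 47.44 over the stages). The means of *Cryba1*, *Foxe3* and *Prox1* were lower at both cornea stages than in the pNC. Those of *Cryaa* and *Bfsp2* were higher, and *Crygc* lay at 0.37 or less in every sample. Of the tissue of the cornea itself, 7 keratocyte markers had a sum of 104 to 160, 2171 to 5655 and 8800 to 10680, and 7 markers of corneal endothelium one of 149 to 192, 572 to 755 and 454 to 511. Markers of Schwann cells and glial crest (28.1 to 38.7, 18.3 to 24.5 and 30.1 to 36.03) and of blood cells (3896 to 5898, 1756 to 2316 and 648 to 1351) were listed at every stage. Among the samples 2 stood apart. E14.5 replicate 1 had the highest epithelial sum of its stage (2238, against 705 and 832 in the other replicates) and the lowest endothelial one (74.1, against 118 and 123). E10.5 replicate 3 had the lowest endothelial, neuronal, retinal and lens marker sums of its stage.

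Promoter sequences are shown for the members that share letters known as binding motifs of Hes and Hey repressors or of RBPJ, because the 10 genes include both the factors and genes that these factors can bind. The RefSeq table of GRCm38.p6 held promoters (250 bases before to 50 bases after a transcription start site) for 8 of the 10 members, in 9 windows because *Dll1* has more than 1 start site. *Hes1* and *Hey1* were not matched. The motif CACGCG of Hes and Hey proteins was found on either strand in 5 of the 9 windows, those of *Jag1*, *Jag2*, *Dll1*, *Dll4* and *Notch2*, against 9.27% of all 32851 promoters. The 4 stretches of 66 bases around it are given 5′ to 3′ on the strand of the gene, with the motif in capitals. They lie at chr2:119325559-119325624 (plus strand) for *Dll4*, chr2:137116656-137116721 (minus) for *Jag1*, chr3:98013466-98013531 (plus) for *Notch2* and chr17:15376965-15377030 (minus) for *Dll1*. The motif begins at position -195, -171, -42 and -68 from the start site in this order. Bases G and C make up 62.1%, 71.2%, 77.3% and 47.0% of these stretches. The share over all promoters was not matched for base content, so that the counts are no measure of enrichment.
Dll4: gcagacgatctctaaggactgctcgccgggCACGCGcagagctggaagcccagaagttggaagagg
Jag1: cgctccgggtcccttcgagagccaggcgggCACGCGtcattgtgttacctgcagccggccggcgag
Notch2: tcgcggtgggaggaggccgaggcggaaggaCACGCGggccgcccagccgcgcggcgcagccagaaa
Dll1: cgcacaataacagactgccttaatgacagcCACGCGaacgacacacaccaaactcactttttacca
In *Jag2* the motif begins 19 bases after the start site, and the *Jag1* window holds another match on the opposite strand at position -249.

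The RBPJ motif GTGGGAA, a longer form of TGGGAA, was found in 1 of the 9 member windows, that of the target gene *Hey2*, against 6.38% of all promoters (25.6% for TGGGAA, which also had its match in *Hey2* alone among the members). The *Hey2* window holds it on both strands, at position -4 on the strand of the gene and at -207 on the opposite strand. The stretch from -250 to 10 is chr10:30842774-30843033 on the minus strand, with the motif and its reverse complement in capitals.
Hey2: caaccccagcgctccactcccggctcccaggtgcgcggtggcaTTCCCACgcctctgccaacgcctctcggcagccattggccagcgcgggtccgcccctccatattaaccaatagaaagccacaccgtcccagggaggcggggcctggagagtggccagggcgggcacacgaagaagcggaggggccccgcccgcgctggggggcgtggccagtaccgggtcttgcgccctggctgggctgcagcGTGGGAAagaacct
Of the other motifs searched on both strands, CACGAG, a second Hes and Hey motif, matched in *Notch3* (6.48% of all promoters), and CCACACC, a motif of KLF factors, matched in *Hey2* (7.58%). The E-box CACGTG (7.15% of all promoters), close in its letters to CACGCG, and the AP-1 motif TGACTCA (5.20%) matched in no member window. GGAA, the core of ETS motifs and also the end of the RBPJ motif, occurs in 96.0% of all promoters and in the windows of 6 members. These matches describe letters in a window and are no measure of binding.

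Differences between stages were tested with edgeR's quasi-likelihood test on the expected counts over 14771 genes, and a gene was called when its Benjamini-Hochberg adjusted p was under 0.05 and its absolute log2 fold change at least 1. Between E10.5 and E14.5, 2 of the 10 members were called higher (*Jag2* and *Dll1*), where 13.6% of all tested genes were, and 1 was called lower (*Hey2*), where 7.97% were. Between E10.5 and E16.5, 5 members were called higher (*Notch1*, *Jag1*, *Jag2*, *Dll1* and *Hes1*) beside 19.4% of all genes, and 3 were called lower (*Dll4*, *Hey1* and *Hey2*) beside 15.4%. Between E14.5 and E16.5, 1 member was called higher (*Notch1*, 6.26% of all genes) and 2 lower (*Dll4* and *Hey1*, 5.47% of all genes). The median log2 fold change of the 10 members was 0.55, 0.95 and 0.39 in these comparisons, against 0.01, 0.00 and -0.02 over all tested genes. The comparisons share samples and are therefore not independent of each other. With the library totals used in place of TMM scaling, the median of all genes moved to -0.15 between E10.5 and E16.5 and to -0.19 between E14.5 and E16.5, and the genes called higher and lower became 2503 and 2695 in place of 2862 and 2282 for the former comparison and 731 and 1099 in place of 924 and 808 for the latter.

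**Figure D1:**
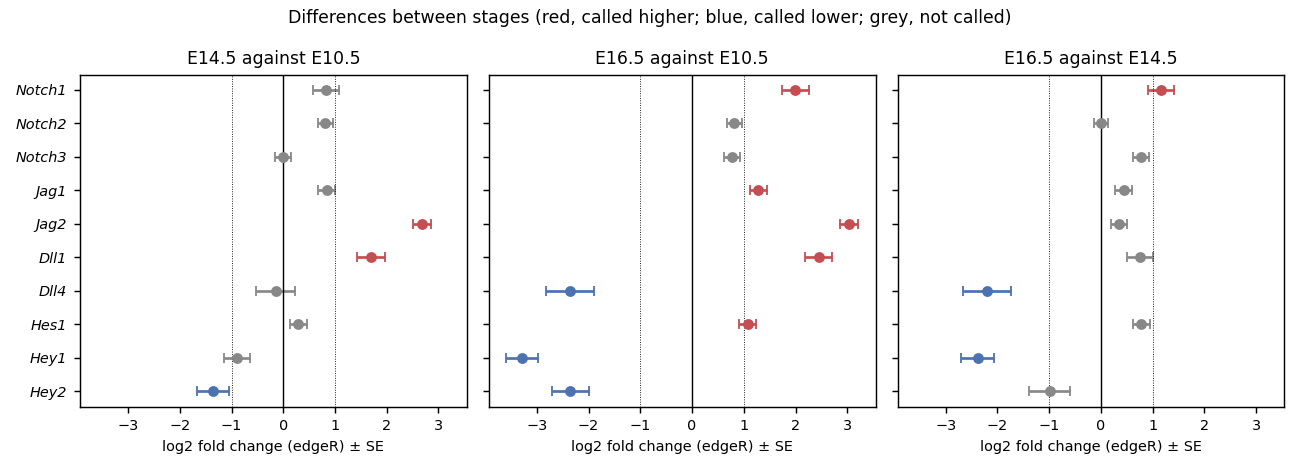
Log2 fold change (horizontal axis) ± standard error of the 10 genes in each of the 3 comparisons, with dotted lines at an absolute value of 1. *Jag2* lies farthest to the right in the comparisons with E10.5 (2.68 and 3.03), and *Hey1* farthest to the left between E10.5 and E16.5 (-3.28). *Notch3* between E10.5 and E14.5 and *Notch2* between E14.5 and E16.5 lie at 0.00, and the sign of either turns with the scaling.

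At E10.5, *Notch3* had the highest mean FPKM of the 10 genes (31.9 ± 6.87, SD, n = 3), followed by *Hes1* (21.5), *Notch2* (14.6), *Notch1* (10.9), *Hey1* (9.82), *Jag2* (8.87), *Jag1* (6.89), *Dll1* (2.90), *Dll4* (2.55) and *Hey2* (2.04). In this order the ranges of *Notch3*, *Hes1* and *Notch2* were separate, each gene from *Notch2* to *Jag1* overlapped with the next, *Jag1* lay above *Dll1*, and the last 3 overlapped. At E14.5, *Jag2* was the highest (57.5 ± 13.7) and its range lay above that of *Notch3* (32.1), while *Notch3*, *Hes1* (26.6), *Notch2* (25.9) and *Notch1* (19.6) overlapped each with the next. *Jag1* (12.5) overlapped with *Dll1* (9.47), and *Hey1* (5.31), *Dll4* (2.31) and *Hey2* (0.8) followed without overlap. At E16.5 the order was *Jag2* (65.4 ± 6.08), *Notch3* (49.4), *Hes1* (40.9), *Notch1* (39.3), *Notch2* (23.3), *Jag1* (15.1), *Dll1* (14.3), *Hey1* (0.903), *Dll4* (0.443) and *Hey2* (0.357). Here *Notch3*, *Hes1* and *Notch1* overlapped each with the next, as did *Jag1* with *Dll1*, *Hey1* with *Dll4* and *Dll4* with *Hey2*, while *Hey1* and *Hey2* did not overlap. The lowest of the 7 upper genes, *Dll1*, lay at 13.5 or more in every E16.5 sample and the 3 lower genes at 1.28 or less.

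**Figure D2:**
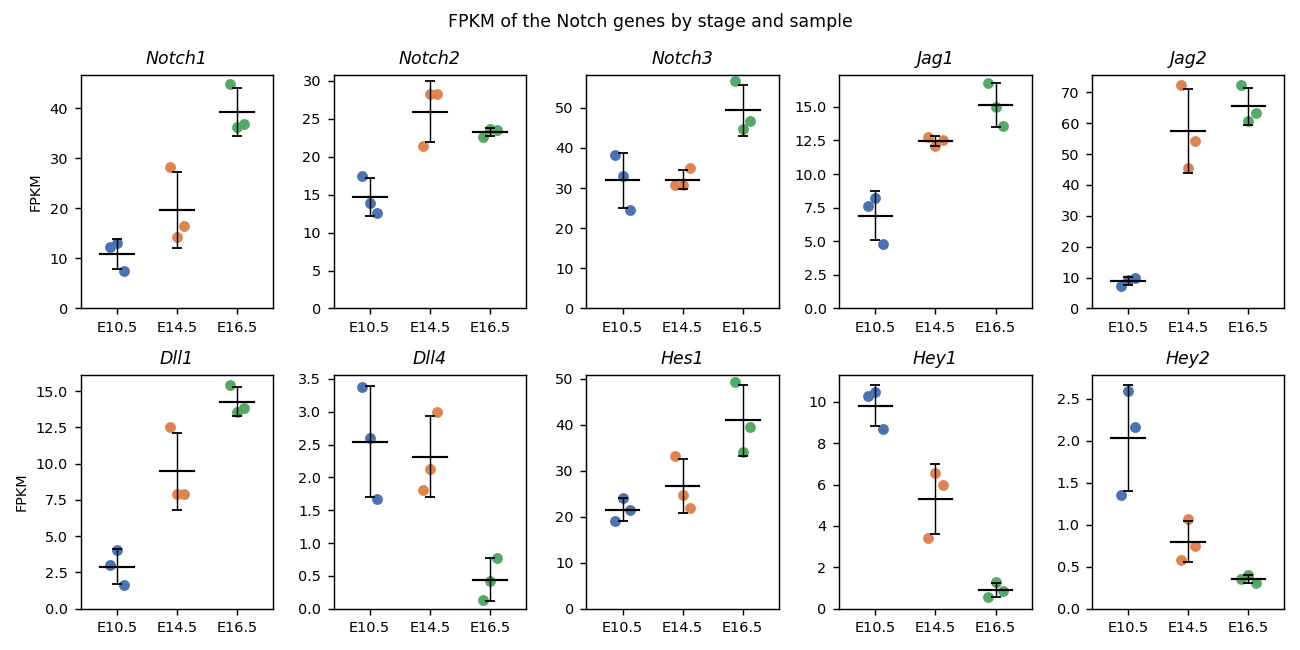
FPKM (vertical axis, from 0) of the 10 genes in each sample, as points by stage, with the mean and SD of 3 samples as bars. *Notch1*, *Jag1* and *Dll1* stand higher at each later stage with no overlap between stages, *Hey1* and *Hey2* stand lower at each later stage with no overlap, and *Dll4* drops between E14.5 (1.81 to 3.0) and E16.5 (0.130 to 0.780).

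*Notch1* (Entrez Gene 18128, chr2:26457902-26503822) encodes the receptor best known in stratified epithelia and in blood vessels. Its FPKM was 12.2, 13.1 and 7.5 in replicates 1, 2 and 3 at E10.5, 28.3, 14.3 and 16.4 at E14.5, and 44.8, 36.3 and 36.8 at E16.5. The stages did not overlap, but E14.5 replicate 1 lay well above the other E14.5 samples and E10.5 replicate 3 below the other E10.5 samples. Between E10.5 and E16.5 *Notch1* rose with a log2 fold change of 1.99 (SE, the standard error, 0.26, adjusted p = 4.79e-05). Its log2 fold change was 0.83 between E10.5 and E14.5 (SE 0.26, adjusted p = 0.0174), under the fold threshold. Without E14.5 replicate 1 this value was 0.48 and without E10.5 replicate 3 it was 0.61, where the adjusted p of 0.0703 missed the threshold. The highest value with 1 replicate left out was 1.02, above the fold threshold. From E14.5 to E16.5 *Notch1* was called higher with a log2 fold change of 1.16 (SE 0.25, adjusted p = 0.00585). That call rested on a value close to the fold threshold: it was 1.51 without E14.5 replicate 1, 0.97 without E14.5 replicate 2 and 0.998 with library totals, and the last 2 settings ended the call.

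*Notch2* (Entrez Gene 18129, chr3:98013538-98150367) and *Notch3* (Entrez Gene 18131, chr17:32120820-32166896) passed the fold threshold in no comparison. *Notch2* encodes a widely expressed receptor, and its FPKM was 17.4, 13.9 and 12.6 at E10.5, 21.3, 28.2 and 28.3 at E14.5, and 22.6, 23.6 and 23.5 at E16.5. Every cornea lay above every E10.5 sample, and the 2 cornea stages overlapped. The log2 fold change of *Notch2* was 0.81 from E10.5 to E14.5 (SE 0.14, adjusted p = 6.44e-04) and 0.82 from E10.5 to E16.5 (SE 0.14, adjusted p = 3.58e-04). From E14.5 to E16.5 it was 0.00 (SE 0.14, adjusted p = 0.991), and it turned to -0.16 with library totals. *Notch3* encodes the receptor known for its role in the smooth muscle and pericytes around vessels. Its FPKM was 38.1, 33.1 and 24.6 at E10.5, 30.8, 30.7 and 34.9 at E14.5, and 56.7, 44.8 and 46.8 at E16.5, so that E10.5 and E14.5 overlapped and E16.5 lay above both. Its log2 fold change was 0.00 between E10.5 and E14.5 (SE 0.15, adjusted p = 0.987, with a sign that turned with the scaling) and 0.78 from either stage to E16.5 (adjusted p = 8.98e-04 and 0.00355). The summed FPKM of 8 mural cell markers was 59.4 to 83.8 in the pNC, 68.6 to 97.6 in E14.5 corneas and 29.5 to 46.4 in E16.5 corneas. *Notch3* was thus highest at the stage with the lowest sum. The markers differed among themselves. Of the 7 that were tested, 1 was called higher and 3 lower at E14.5 than in the pNC, and 3 were called lower at E16.5. The part of mural cells in the level of *Notch3* was not tested.

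*Jag2* (Entrez Gene 16450, chr12:112907803-112929812), which encodes a Jagged ligand, had the largest log2 fold change of the 10 genes in the direction of the cornea. Its FPKM was 7.33, 9.34 and 9.94 at E10.5, 72.5, 45.6 and 54.4 at E14.5, and 72.3, 60.6 and 63.4 at E16.5. All 6 corneas lay above 45 FPKM and all E10.5 samples under 10, and the 2 cornea stages overlapped. *Jag2* rose between E10.5 and E14.5 with a log2 fold change of 2.68 (SE 0.18, adjusted p = 9.29e-07), a 6.41-fold difference, and between E10.5 and E16.5 with one of 3.03 (SE 0.18, adjusted p = 2.23e-07). From E14.5 to E16.5 its log2 fold change of 0.35 (SE 0.16) missed the threshold (adjusted p = 0.119). Without E14.5 replicate 1, in which *Jag2* was highest, the first of these values was 2.49 and the last 0.54.

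*Jag1* (Entrez Gene 16449, chr2:137081451-137116520) encodes the other Jagged ligand. Its FPKM was 7.65, 8.21 and 4.80 at E10.5, 12.8, 12.1 and 12.6 at E14.5, and 16.8, 14.98 and 13.6 at E16.5. The ranges rose from stage to stage without overlap, and E10.5 replicate 3 was the lowest sample. *Jag1* was called higher at E16.5 than in the pNC (log2 fold change 1.28, SE 0.16, adjusted p = 4.16e-05). The log2 fold change was 0.84 between E10.5 and E14.5 (SE 0.16, adjusted p = 0.00138) and 0.44 between E14.5 and E16.5 (SE 0.16, adjusted p = 0.0547), neither of which was called. Without E10.5 replicate 3 the difference between E10.5 and E16.5 was 1.07 and was still called.

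*Dll1* (Entrez Gene 13388, chr17:15367354-15376932) and *Dll4* (Entrez Gene 54485, chr2:119325784-119335666) encode Delta-like ligands and moved in opposite directions. *Dll1* had FPKM values of 2.99, 4.07 and 1.64 at E10.5, 12.5, 7.94 and 7.92 at E14.5, and 15.4, 13.5 and 13.9 at E16.5, with no overlap between stages and E14.5 replicate 1 closest to E16.5. *Dll1* rose between E10.5 and E14.5 (log2 fold change 1.69, SE 0.27, adjusted p = 3.78e-04) and between E10.5 and E16.5 (2.44, SE 0.27, adjusted p = 1.27e-05). Its log2 fold change between E14.5 and E16.5 was 0.76 (SE 0.24, adjusted p = 0.0332), and 1.002 without E14.5 replicate 1, where it was called. *Dll4*, the ligand known for its role in arterial endothelium and sprouting vessels, had FPKM values of 3.37, 2.6 and 1.67 at E10.5, 1.81, 2.13 and 3.0 at E14.5, and 0.130, 0.420 and 0.780 at E16.5. The first 2 stages overlapped and every E16.5 sample lay under every earlier one, on 4, 13 and 24 counts. *Dll4* fell between E10.5 and E16.5 (log2 fold change -2.35, SE 0.46, adjusted p = 8.67e-04) and between E14.5 and E16.5 (-2.21, SE 0.46, adjusted p = 0.00496), while its log2 fold change between E10.5 and E14.5 was -0.15 (SE 0.38, adjusted p = 0.762) and 0.01 without E14.5 replicate 1.

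*Hes1* (Entrez Gene 15205, chr16:30065357-30067796), which encodes a repressor of the basic helix-loop-helix class, had FPKM values of 19.0, 24.0 and 21.4 at E10.5, 33.2, 24.7 and 22.0 at E14.5, and 49.3, 34.0 and 39.5 at E16.5. E10.5 and E14.5 overlapped, and every E16.5 sample lay above every earlier one. *Hes1* was called higher at E16.5 than in the pNC with a log2 fold change of 1.08 (SE 0.17, adjusted p = 1.62e-04). This call stood close to the fold threshold and was lost with library totals (0.93), with NOISeq (0.93), with limma on log2(FPKM + 1) (0.89) or log2(FPKM + 0.1) (0.92), without E10.5 replicate 1 (0.99) and without E16.5 replicate 1 (0.93). The log2 fold change was 0.29 between E10.5 and E14.5 (SE 0.17, adjusted p = 0.162) and 0.78 between E14.5 and E16.5 (SE 0.16, adjusted p = 0.00493).

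The Hey genes, which encode related repressors known for their roles in vessels and the heart, went the other way. *Hey1* (Entrez Gene 15213, chr3:8663359-8667038) had FPKM values of 10.3, 10.45 and 8.7 at E10.5, 3.40, 6.57 and 5.97 at E14.5, and 0.570, 1.28 and 0.860 at E16.5. The stages did not overlap, and the lowest value of each cornea stage was that of replicate 1. *Hey1* fell between E10.5 and E16.5 with a log2 fold change of -3.28 (SE 0.31, adjusted p = 4.34e-06), the largest fall of the 10 genes, and between E14.5 and E16.5 with one of -2.38 (SE 0.32, adjusted p = 7.08e-04). Between E10.5 and E14.5 the value was -0.90 (SE 0.25, adjusted p = 0.0112), and it passed the fold threshold without E14.5 replicate 2 (-1.06) or replicate 3 (-1.01). *Hey2* (Entrez Gene 15214, chr10:30832359-30842783), whose RBPJ motif was shown above, had FPKM values of 1.35, 2.59 and 2.17 at E10.5, 0.580, 1.07 and 0.750 at E14.5, and 0.360, 0.400 and 0.310 at E16.5, on 7 to 60 counts per sample. These ranges did not overlap either. *Hey2* was called lower than in the pNC at E14.5 (log2 fold change -1.36, SE 0.32, adjusted p = 0.00382) and at E16.5 (-2.35, SE 0.35, adjusted p = 1.32e-04). Between E14.5 and E16.5 its log2 fold change was -0.99 (SE 0.39, adjusted p = 0.0704), and without E14.5 replicate 1 it was -1.18 and was called.

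The share of a gene in the summed FPKM of its class does not depend on how the libraries were scaled. Summed over the 3 receptors, FPKM was 57.5 ± 11.8 (SD, n = 3) in the pNC, 77.7 ± 3.93 in E14.5 corneas and 112 ± 10.6 in E16.5 corneas. *Notch3* held 55.5% ± 0.728 of it in the pNC, 41.4% ± 2.85 in E14.5 corneas and 44.1% ± 1.47 in E16.5 corneas, and remained the most abundant receptor in all 9 samples. The share of *Notch1* was 18.9% ± 2.64 at E10.5 and 35.0% ± 0.950 at E16.5, and at E14.5 it was 35.2% in replicate 1 but 19.6% and 20.6% in replicates 2 and 3. *Notch2* had its highest share at E14.5 (33.6% ± 6.24) and its lowest at E16.5 (20.9% ± 2.36).

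The summed FPKM of the 4 ligands was 21.2 ± 3.09 in the pNC, 81.7 ± 16.3 in E14.5 corneas and 95.3 ± 8.18 in E16.5 corneas. *Jag2* made up 42.7% ± 11.0 of it at E10.5, ranging from 34.4% to 55.1%, and 67.3% to 72.8% in the corneas. The share of *Jag1* was 32.1% ± 4.88 at E10.5 and between 12.8% and 17.8% in the corneas, although its own FPKM was higher there. *Dll4* held 11.9% ± 3.43 of the ligand FPKM in the pNC, 2.94% ± 1.03 in E14.5 corneas and 0.482% ± 0.364 in E16.5 corneas, while *Dll1* stayed between 9.09% and 16.8% in all samples. For *Jag1* and *Dll1* the share and the level thus moved differently. The summed FPKM of the 3 target genes was 33.3 ± 3.30, 32.7 ± 4.25 and 42.2 ± 7.38 at the successive stages, with overlapping ranges. Within this sum *Hes1* went from 64.4% ± 2.20 to 80.8% ± 7.40 and 96.9% ± 1.45, *Hey1* from 29.6% ± 3.53 to 16.8% ± 6.59 and 2.28% ± 1.23, and *Hey2* from 6.04% ± 1.42 to 2.49% ± 0.879 and 0.867% ± 0.221.

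**Figure D3:**
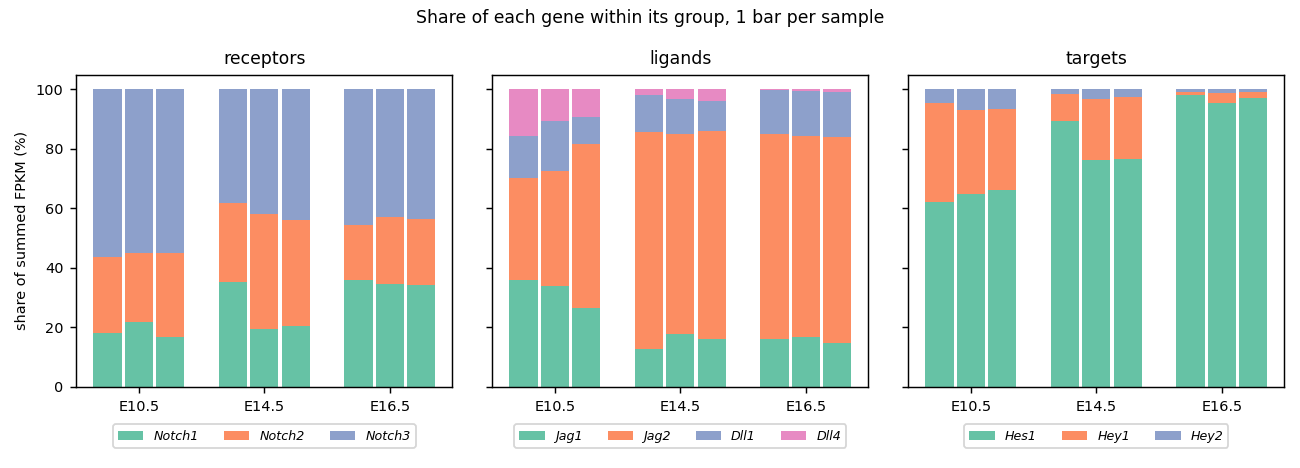
Share of each gene in the summed FPKM of its class (vertical axis, percent), with 1 stacked bar per sample in the order of replicates 1, 2 and 3. *Jag2* takes 67.3% or more of the ligand bars in the corneas, and *Hes1* takes 95.3% or more of the target bars at E16.5.

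Since epithelial and vascular markers moved with stage, the members are also given relative to 1 marker gene of each, the epithelial cadherin gene *Cdh1* and the endothelial adhesion gene *Pecam1*, both picked after their values had been seen. The FPKM of *Cdh1* was 6.28 to 8.0 in the pNC, 35.1 to 58.1 in E14.5 corneas and 57.6 to 70.7 in E16.5 corneas. *Jag2* per *Cdh1* was 1.17 to 1.25 in the pNC, 1.25 to 1.55 in E14.5 corneas and 1.01 to 1.05 in E16.5 corneas, so that the rise of *Jag2* was nearly the size of that of *Cdh1* and the ratio was lowest at E16.5. *Dll1* per *Cdh1* lay between 0.216 and 0.235 in all 6 corneas and was 0.476, 0.546 and 0.205 in the E10.5 replicates. The ratio of *Notch1* to *Cdh1* was 0.938 to 1.94 in the pNC, 0.403 to 0.486 in E14.5 corneas and 0.588 to 0.634 in E16.5 corneas. *Hes1* per *Cdh1* was 2.68 to 3.22 at E10.5 and 0.571 to 0.697 in the corneas. The ratios depend on the marker, since *Jag2* per *Dsp*, the gene of the junction protein desmoplakin, went from 3.86 to 4.44 at E10.5 down to 0.352 to 0.397 at E16.5. Unlike *Cdh1* and *Dsp*, the epithelial marker *Epcam* had a lower mean at E16.5 (25.6) than at E14.5 (38.6), and no ratio to it was taken. The part of epithelial cells in the rises of *Jag2*, *Dll1* and *Notch1* was not tested.

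*Pecam1* had an FPKM of 17.1 to 26.3 in the pNC, 6.14 to 11.5 in E14.5 corneas and 0.320 to 1.35 in E16.5 corneas, and 9 of the 10 vascular endothelial markers were called lower in each of the 3 comparisons. The tenth was the receptor gene *Kdr*, with an FPKM between 18.3 and 38.9 in all samples. *Hey1* per *Pecam1* was 0.392 to 0.510 in the pNC, 0.554 to 0.577 in E14.5 corneas and 0.948 to 1.78 in E16.5 corneas, so that the fall of *Pecam1* was the larger. This too depends on the marker: *Hey1* per *Cdh5*, the endothelial cadherin gene, overlapped between the pNC (0.266 to 0.428) and E14.5 corneas (0.378 to 0.413) and was 0.551 to 3.35 in E16.5 corneas, and *Egfl7*, another endothelial marker, fell less from the pNC to E16.5 (log2 fold change -2.82) than *Hey1* (-3.28). *Dll4* per *Pecam1* was 0.0978 to 0.128 in the pNC, 0.185 to 0.295 in E14.5 corneas and 0.311 to 0.963 in E16.5 corneas. *Hey2* per *Pecam1* overlapped between E10.5 (0.0514 to 0.127) and E14.5 (0.0725 to 0.0945) and was higher at E16.5 (0.296 to 1.13), where *Hey2* rested on 7 to 9 counts. The part of vascular cells in the falls of *Dll4*, *Hey1* and *Hey2* was not tested.

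**Figure D4:**
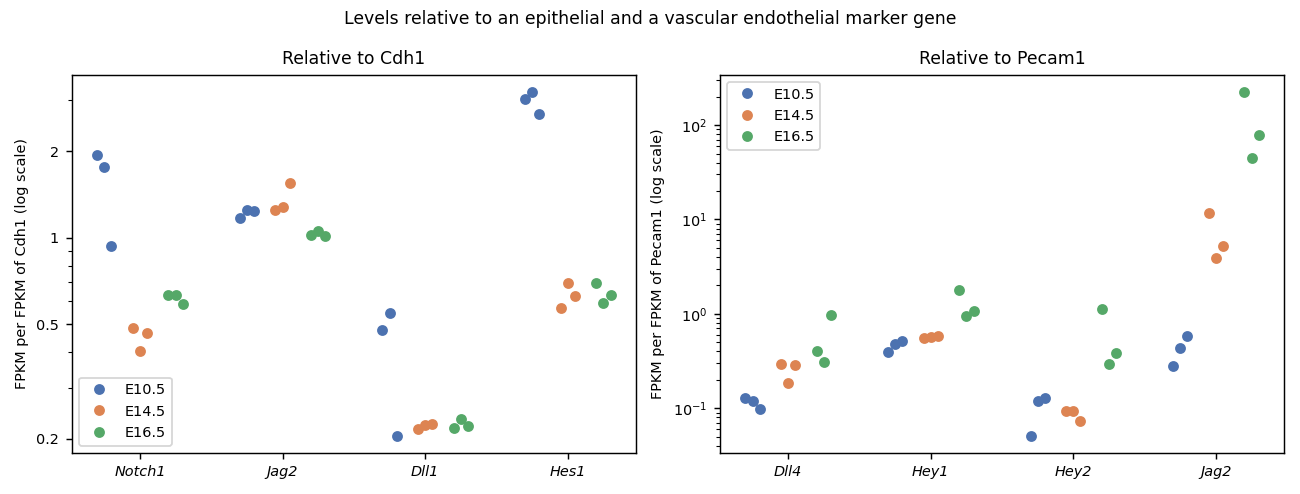
FPKM of members divided by the FPKM of *Cdh1* (left) or *Pecam1* (right) in each sample, on log axes, with 1 point per sample colored by stage. *Jag2* per *Cdh1* stays between 1.01 and 1.55 in all 9 samples, while *Jag2* per *Pecam1* goes from under 1 at E10.5 to 44.9 or more at E16.5.

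Likeness of pattern was measured as the root mean square difference of log2(FPKM + 1), with each gene centered on its own mean over the 9 samples, among genes that reached a mean FPKM of 5 in 1 or more stages. The genes nearest to *Jag2* were *Grhl2*, *Kdf1* and *Esrp1* (differences of 0.12, 0.14 and 0.15), of which *Grhl2* and *Esrp1* encode an epithelial transcription factor and an epithelial splicing factor. *Grhl2* had a mean FPKM of 2.20, 16.6 and 19.7 at the successive stages. Nearest to *Hey1* were *Sh2d3c*, *Podxl* and *Cd93* (0.16, 0.17 and 0.17), the last of which encodes a receptor on endothelial cells. *Notch1* was nearest to *Erbb3*, *Arhgap27* and *Slc2a1*, *Notch2* to *Mmp11*, *Med13l* and *Glg1*, and *Notch3* to *Tdrd7*, *Cpeb4* and *Epha2*. *Jag1* was nearest to *Abca2*, *Clstn1* and *Tmem53*, *Dll1* to *Arrdc1*, *Folr1* and *Tapbpl*, and *Dll4* to *Lcp1*, *Scube3* and *Kif21b*, with differences of up to 0.19. *Hes1* was nearest to *Pawr*, *Mbp* and *Hebp2*, and *Hey2* to *Zfp454*, *9430015G10Rik* and *Ppp1r35*. For a gene as low as *Hey2* the measure is small for many genes that changed little, since it depends on the size of the change.

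The rest of the pathway was read from a list of 52 genes in 7 classes, of which 47 passed the filter on low counts. The 5 that did not were *Hes2*, *Hes3*, *Hes5*, *Hes7* and *Helt*. Between E10.5 and E14.5, 9 of the 47 were called higher and 3 lower, between E10.5 and E16.5, 14 and 5, and between E14.5 and E16.5, 3 and 3, to be read against the shares of all tested genes given above. The median log2 fold change of the 47 genes was 0.09, 0.23 and 0.16. *Rbpj*, which encodes the DNA-binding partner of the receptors, was called in no comparison. The FPKM of *Rbpj* was 30.6, 30.3 and 31.5 at E10.5, 19.7, 27.5 and 22.6 at E14.5, and 16.9, 18.4 and 17.7 at E16.5. As FPKM without TMM scaling, these values were lower at each later stage without overlap. With TMM scaling, the log2 fold change from E10.5 was -0.42 by E14.5 and -0.65 by E16.5.

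Among the 5 other receptors and ligands, *Dlk2*, which encodes a noncanonical Delta-like protein, differed most. Its FPKM was 1.83, 1.45 and 1.34 at E10.5, 81.2, 55.6 and 61.2 at E14.5, and 89.6, 78.0 and 86.0 at E16.5. The log2 fold change was 5.40 between E10.5 and E14.5 (SE 0.19, adjusted p = 1.98e-08) and 5.92 between E10.5 and E16.5. *Dlk1*, its relative, was called higher at E16.5 than in the pNC (1.10, and 0.90 and not called without E10.5 replicate 3) and in E14.5 corneas (1.45). The former call was also lost with library totals (0.94), NOISeq (0.96) and limma on log2(FPKM + 1) (0.96) or log2(FPKM + 0.1) (0.98). *Notch4*, the receptor gene known from endothelium, had FPKM values of 5.62, 4.77 and 2.58 at E10.5, 2.12, 2.89 and 3.39 at E14.5, and 0.190, 0.630 and 0.610 at E16.5, and fell between E10.5 and E16.5 with a log2 fold change of -3.03 (SE 0.40, adjusted p = 5.02e-05). *Dll3* and *Dner*, ligand genes known from neural tissue, were called lower at both cornea stages than in the pNC, by E14.5 with values of -2.76 and -2.33 on the log2 scale and by E16.5 with values of -3.65 and -2.42. Both genes were low, with a mean FPKM of 2.26, 0.333 and 0.16 over the stages for *Dll3* and 0.623, 0.123 and 0.1 for *Dner*. They had at most 8 counts in any cornea, and NOISeq called neither gene in these comparisons. The neuronal marker sum moved in the same direction as *Dll3* and *Dner*, and its part in their differences was not tested. *Notch4* per *Pecam1* was 0.151 to 0.221 in the pNC, 0.250 to 0.345 in E14.5 corneas and 0.467 to 0.753 in E16.5 corneas. What part vascular cells had in the fall of *Notch4* was not tested.

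In the fringe family, whose enzymes add sugars to the receptors and so alter their response to ligands, *Lfng* and *Mfng* moved apart. *Lfng* had FPKM values of 2.95, 4.65 and 3.84 at E10.5 and between 7.45 and 9.16 in the corneas, and rose with a log2 fold change of 1.09 by E14.5 (0.93 and not called without E10.5 replicate 1) and 1.31 by E16.5. *Mfng* had FPKM values of 11.4, 12.9 and 7.07 at E10.5, 2.56, 3.36 and 3.19 at E14.5, and 0.250, 0.870 and 0.370 at E16.5, with log2 fold changes of -1.80 by E14.5 and -4.23 by E16.5. None of the E10.5 values of either gene overlapped with its values in the corneas. At E16.5 *Mfng* rested on 4, 14 and 6 counts. *Mfng* per *Pecam1* was 0.414 to 0.597 in the pNC, 0.291 to 0.417 in E14.5 corneas and 0.457 to 0.781 in E16.5 corneas. What part vascular cells had in the fall of *Mfng* was not tested. Of the 9 genes for cleavage of the receptor, *Furin*, whose protease cuts the newly made receptor, was called higher at both cornea stages (1.26 and 1.498), and *Psen2*, a subunit of γ-secretase, at E16.5 (1.22). Of the 4 ubiquitin ligases that act on ligands, *Mib2* was called higher at E16.5 than in the pNC (1.19).

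In the nuclear complex of 8 genes, *Maml2*, a Mastermind coactivator, was called higher at E14.5 and E16.5 than at E10.5 (1.23 and 1.10) and *Maml3* at E16.5 (1.26). The E14.5 call of *Maml2* was lost with NOISeq and with limma on log2(FPKM + 1) (0.99). Its E16.5 call was lost with NOISeq (0.94), library totals (0.94) and limma on log2(FPKM + 1) (0.75) or log2(FPKM + 0.1) (0.92). The class of 12 genes labeled pathway inhibitors also holds *Dtx* and *Lnx* genes, which do not inhibit the pathway in every setting. Of these 12 genes, 3 were called higher at E14.5, *Numbl* (1.02), *Dtx1* (1.202) and *Dtx4* (1.02). At E16.5, 5 were called higher, *Numb* (1.19), *Numbl* (1.65), *Dtx4* (1.28), *Nrarp* (1.78) and *Lnx2* (1.52). None of the 12 was called lower in any of the 3 comparisons. Of all tested genes, 13.6% were called higher and 7.97% lower at E14.5, and 19.4% and 15.4% at E16.5. The calls of *Numbl* and *Dtx4* at E14.5 stood at the fold threshold and were lost without E10.5 replicate 3 (0.89 and 0.75), as was that of *Numbl* without E14.5 replicate 1 (0.91) and that of *Dtx4* without E14.5 replicate 3 (0.84). *Numb*, which encodes an endocytic adaptor that lowers receptor levels, had FPKM values of 14.6, 15.5 and 16.9 at E10.5, 16.8, 12.6 and 12.8 at E14.5, and 38.5, 31.5 and 29.3 at E16.5, and was also called higher at E16.5 than at E14.5 (1.37). *Nrarp*, itself a known Notch target, had FPKM values of 6.95, 10.02 and 5.59 at E10.5, 19.9, 14.4 and 10.8 at E14.5, and 26.5, 20.8 and 22.5 at E16.5. The E10.5 values of *Nrarp* lay under all values in the corneas.

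Of the 4 other Hes and Hey family genes that were tested, *Heyl* moved like *Hey1* at the last stage. Its FPKM was 4.75, 7.04 and 3.65 at E10.5, 3.29, 6.37 and 6.57 at E14.5, and 0.380, 1.56 and 1.06 at E16.5. The log2 fold change was -2.21 from the pNC to E16.5 and -2.27 from E14.5 to E16.5. *Heyl* per *Pecam1* was 0.181 to 0.326 in the pNC, 0.536 to 0.635 in E14.5 corneas and 1.16 to 1.31 in E16.5 corneas. What part vascular cells had in the fall of *Heyl* was not tested. *Bhlhe40*, a more distant repressor of the same class, was called higher in all 3 comparisons (1.30, 2.66 and 1.36), and *Bhlhe41* at E14.5 (1.12, and 0.96 and not called without E10.5 replicate 3). *Hes6* had FPKM values of 32.5, 35.5 and 25.4 at E10.5, 15.7, 18.6 and 17.4 at E14.5, and 16.9, 13.5 and 14.9 at E16.5, with all corneas below all E10.5 samples. Its log2 fold changes of -0.87 by E14.5 (adjusted p = 3.61e-04) and -0.90 by E16.5 (adjusted p = 1.54e-04) were under the fold threshold. The latter was called without E10.5 replicate 3 (-1.03), with library totals (-1.05), with NOISeq (-1.05) and with limma on log2(FPKM + 0.1) (-1.03). The paper also reports *Hes6* as downregulated at E16.5.

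**Figure D5:**
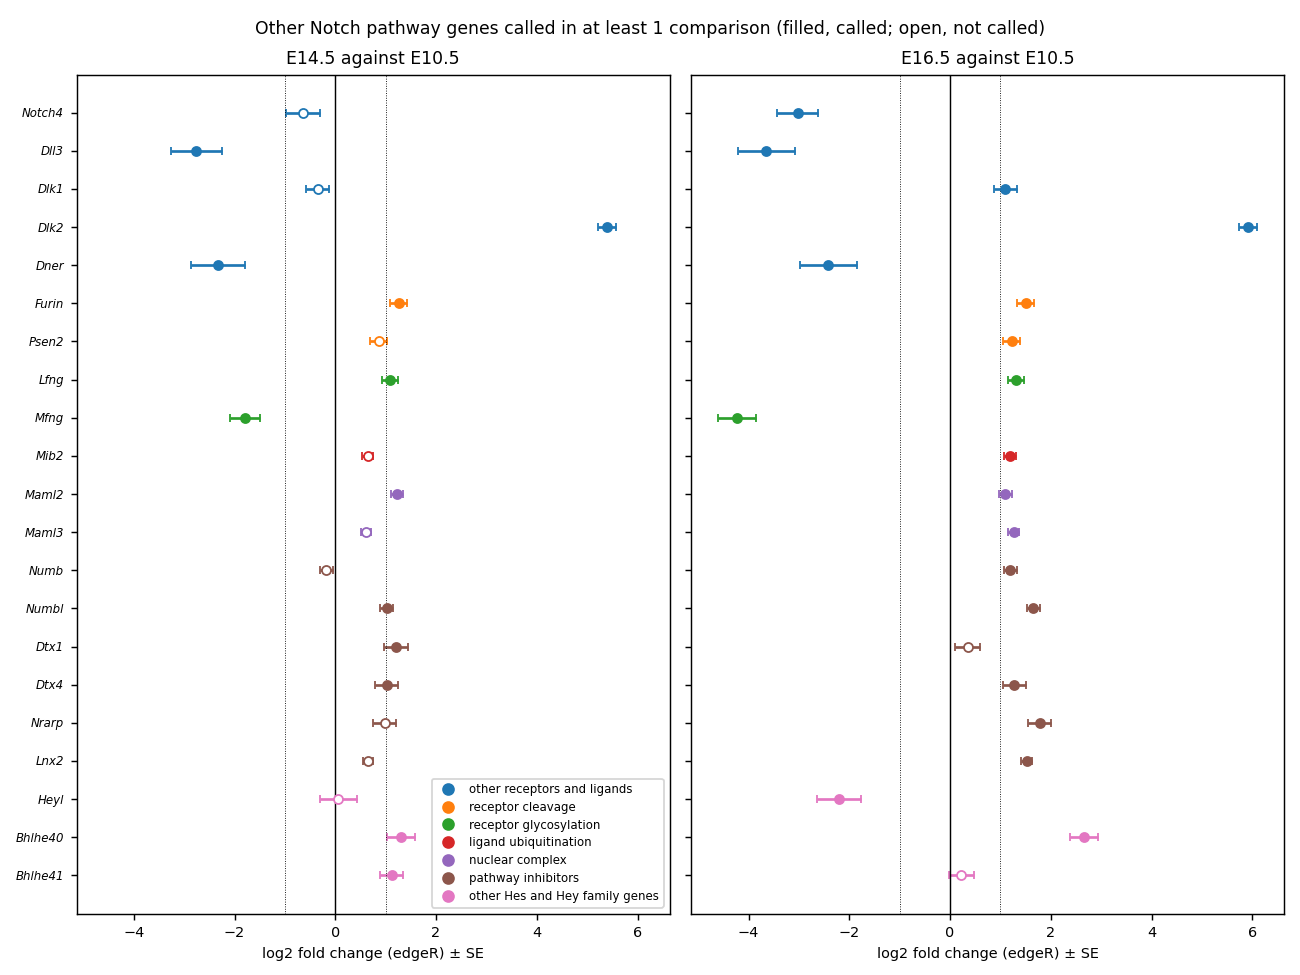
Log2 fold change (horizontal axis) ± standard error of the pathway genes called in at least 1 of the 3 comparisons, between E10.5 and E14.5 (left) and between E10.5 and E16.5 (right), colored by class, with filled points where the gene was called in the comparison shown. *Dlk2* lies farthest to the right (5.40 and 5.92) and *Mfng* farthest to the left at E16.5 (-4.23).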

How the data were processed

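RNA-Seq was measured in 9 samples, grouped by stage from their labels. As described in the methods of the study, the authors filtered reads, mapped them with Bowtie2 and HISAT to GRCm38 genes and genome, and quantified them with RSEM, whose versions are not given in the sources used here. The deposited expected count of a gene is an estimate that the authors did not normalize. The deposited FPKM values were scaled by the authors with RSEM to transcript length and library total. A gene missing from a sample was set to 0, and the lowest listed FPKM was 0.01. Depth leaves counting error small except for *Dll4*, *Hey1* and *Hey2*. Replicates of a stage differed by more than sampling noise (chi-square per degree of freedom 2.98 to 27.4).

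Expected counts were rounded and fitted with edgeR 4.0.16 (R 4.3.3; filterByExpr by stage, TMM, quasi-likelihood test, 1 model of stage on all 9 samples, Benjamini-Hochberg adjustment over 14771 genes). Adjusted p values in the text are from this fit. The study used NOISeq on FPKM, which was recomputed as an alternative (probability of at least 0.8), because counts allow a test of replicates. The procedure was tested on simulated data. Other alternatives were library totals, DESeq2 1.42.0 and its size factors, no filter, the adjusted p alone, limma 3.58.1 on log2(FPKM + 1) and log2(FPKM + 0.1), each replicate left out, and the replicate number as a block. The numbers do not pair the samples: deviations from stage means correlated from -0.225 to 0.250 between samples of the same number and from -0.207 to 0.188 between others.

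All 10 members are described, with the pathway genes called in at least 1 comparison and the 3 genes nearest to each member in pattern. *Rbpj* and *Hes6*, called in no comparison with edgeR on all 9 samples and TMM scaling, were named after their values had been seen. The members and lists were chosen with earlier results of these data known. Cell types were read from 12 lists of marker genes (87 genes). Positions are those of RefSeq for GRCm38, and promoters were searched with 8 motifs in Python 3.11.15.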

Additional observations from a re-analysis of the deposited data

How the results depend on the processing

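With 3 samples a stage, calls near a log2 fold change of 1 depend on the setting, and *Dll4*, *Hey1* and *Hey2* rest on few counts at E16.5. Of the log2 fold changes of the 10 members under all alternatives, 518 kept their direction and side of the thresholds, 15 became called, 16 lost the call and 21 changed sign. The replicate block changed no call of a member (its log2 fold change for *Notch3* between E10.5 and E14.5 was 0.01).

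The number of members called higher and lower between E10.5 and E14.5 (2 and 1) became 5 and 2 with the adjusted p alone. The 1 lower member, *Hey2*, was lost (0) with limma on log2(FPKM + 1), with or without a filter, and with NOISeq, and leaving out each replicate gave 1 to 2. Between E10.5 and E16.5, NOISeq called 1 lower in place of 3, without *Dll4* and *Hey2*. Between E14.5 and E16.5, the 1 higher member became 0 with library totals and with NOISeq, 4 with the adjusted p alone and 0 to 2 when each replicate was left out (2 without E14.5 replicate 1, 0 without E14.5 replicate 2), and the 2 lower members became 1 with NOISeq. Limma on log2(FPKM + 1) compresses the fold of low genes, and the adjusted p alone drops the fold minimum. Of all 14771 tested genes, the adjusted p alone called 4273 higher and 4055 lower between E10.5 and E14.5. Between E14.5 and E16.5 it called 2579 and 2585. Filtered limma on log2(FPKM + 1) called 1302 higher and 760 lower of 14304 genes between E10.5 and E14.5. For NOISeq the share over all genes was not computed. With NOISeq, *Notch1* between E14.5 and E16.5 passed the probability (0.822) but not the fold minimum (log2 ratio 0.9996), as did *Hes1* between E10.5 and E16.5 (0.837 and 0.93), while *Dll4* and *Hey2* missed the probability in the comparisons where edgeR called them (0.532 to 0.748). The cause was not tested for the other changes.

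Among the pathway genes, the 9 called higher between E10.5 and E14.5 became 18 with the adjusted p alone, 2 with limma on log2(FPKM + 1), with or without a filter, and 3 with NOISeq, and the 3 called lower became 6 with the adjusted p alone and 1 with NOISeq. Between E10.5 and E16.5, 14 higher became 9 with limma on log2(FPKM + 1), with or without a filter, and 5 lower became 9 with the adjusted p alone. Between E14.5 and E16.5, 3 higher became 13 with the adjusted p alone, and 3 lower became 5 with library totals, 7 with the adjusted p alone and 1 with NOISeq. These counts are to be read against those of all tested genes given above. For E10.5 and E16.5, the adjusted p alone called 5197 higher and 5119 lower of 14771 genes, and filtered limma on log2(FPKM + 1) called 1885 higher of 14304.

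Changes of sign were found where the log2 fold change was near 0. *Notch3* between E10.5 and E14.5 (-0.0038) was 0.0064 with library totals, 0.0277 with limma on log2(FPKM + 1), with or without a filter, 0.0291 on log2(FPKM + 0.1), 0.0141 with the replicate block, 0.0083 with NOISeq and -0.1691 to 0.1427 when each replicate was left out. *Notch2* between E14.5 and E16.5 (0.0029) was -0.1589 with library totals, -0.0015 without a filter, -0.1406 with limma on log2(FPKM + 1), with or without a filter, -0.1453 on log2(FPKM + 0.1), -0.1577 with NOISeq and -0.1254 to 0.0892 when each replicate was left out. *Dll4* between E10.5 and E14.5 (-0.1482) was -0.4022 to 0.1042 when each replicate was left out, with the sign changed without E10.5 replicate 1 or E14.5 replicate 1. With FPKM rescaled by TMM factors, 3 stage means moved by more than their SD: *Notch2* at E16.5 to 25.01, *Jag1* at E14.5 to 11.98 and *Dll1* at E16.5 to 15.3.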
